A study of Mus musculus with 12 samples.

Results

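The genes described here are 9 genes of the lung epithelium, 4 that carry sodium out of the airspace and 5 that hold epithelial cells together. They were found by gene symbol in the count table of each library, where all 9 of 9 had a row among 23238 symbols, and all 9 were among the 16484 genes that passed the filter on low counts. The transport genes are Scnn1a, Scnn1b and Scnn1g, which encode the α, β and γ subunits of the epithelial sodium channel ENaC, and Atp1b1, the β1 subunit of the sodium-potassium pump. The junction and adhesion genes are the claudins Cldn18 and Cldn3, the tight junction protein occludin (Ocln), E-cadherin (Cdh1) and the epithelial cell adhesion molecule (Epcam).

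RNA sequencing was run on bulk mouse lung in 12 samples, 3 in each of 4 groups. Lung labelled NoIR received no irradiation, and lung labelled IR_8d, IR_11d and IR_14d was taken 8, 11 and 14 days after irradiation, with sampling limited to the irradiated areas per the series description. The sources used here do not give the radiation dose, the strain, sex and age of the mice, or the region sampled in unirradiated lung. Nothing in the labels says whether the 3 samples of a group came from separate mice, so the p-values below measure the spread between samples, which may be in part technical. The libraries held 19624554 to 27765751 counts, and the lowest of the member genes, Cldn3, had 10967 counts over the 12 libraries.

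The alveolar epithelium keeps the airspace nearly dry by moving sodium. Sodium enters the cell from the airspace through ENaC, leaves on the other side through the sodium-potassium pump, and water follows. Tight junctions, in which claudins and occludin seal the gap between neighbouring cells, stop the salt and water from leaking back, while E-cadherin in the adherens junction below them binds the cells to one another. Cldn18 is known as the main claudin of alveolar type 1 cells, the thin gas-exchange cells, and Cldn3 as a claudin of alveolar type 2 cells and the airway.

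The members lie on 9 separate stretches of the mouse genome (build mm10, annotation GENCODE M21), and 2 of them are neighbours. Scnn1g (chr7:121734479-121768475) and Scnn1b (chr7:121865038-121918514) both lie on the plus strand, 96562 bases apart with 0 protein-coding genes between them. Scnn1a lies at chr6:125320659-125344943 on the plus strand, Atp1b1 at chr1:164437109-164458355 on the minus strand, Cldn18 at chr9:99689461-99717267 on the minus strand and Cldn3, a gene of 1 exon, at chr5:134986214-134987472 on the plus strand. Ocln lies at chr13:100496507-100552718 on the minus strand, Cdh1 at chr8:106603351-106670246 and Epcam at chr17:87635979-87651129, both on the plus strand.

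Promoters are shown for Scnn1g, Scnn1b, Cldn18 and Ocln, because these are the members that fell at 14 d. Each run is the sense strand, 5′ to 3′, from 250 bases before the annotated start of transcription to 50 bases after it, taken from RefSeq on build GRCm38.p6. Capitals mark CAGGTG or, where the motif lies on the other strand, CACCTG, the E-box that repressors of the Snail and Zeb families are known to bind. Cldn18 has 2 annotated starts, and its gene is known for a lung and a stomach form that differ in their first exon, which counts per gene do not separate. Ocln also has 2 annotated starts, and the one nearer the end of the gene is shown.
Scnn1g, plus strand, chr7:121734229-121734528: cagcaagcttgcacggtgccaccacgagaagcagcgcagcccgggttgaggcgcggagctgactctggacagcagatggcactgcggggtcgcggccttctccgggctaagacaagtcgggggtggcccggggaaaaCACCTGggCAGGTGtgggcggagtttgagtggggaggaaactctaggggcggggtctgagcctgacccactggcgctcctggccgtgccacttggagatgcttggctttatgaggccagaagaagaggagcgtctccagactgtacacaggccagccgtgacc
Scnn1b, plus strand, chr7:121864788-121865087: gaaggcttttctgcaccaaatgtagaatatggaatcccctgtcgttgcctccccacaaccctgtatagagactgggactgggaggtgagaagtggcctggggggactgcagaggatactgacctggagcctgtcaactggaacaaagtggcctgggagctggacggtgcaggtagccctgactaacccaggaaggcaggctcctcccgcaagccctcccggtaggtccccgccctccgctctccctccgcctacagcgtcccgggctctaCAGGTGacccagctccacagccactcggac
Cldn18 start 1, minus strand, chr9:99710014-99710313: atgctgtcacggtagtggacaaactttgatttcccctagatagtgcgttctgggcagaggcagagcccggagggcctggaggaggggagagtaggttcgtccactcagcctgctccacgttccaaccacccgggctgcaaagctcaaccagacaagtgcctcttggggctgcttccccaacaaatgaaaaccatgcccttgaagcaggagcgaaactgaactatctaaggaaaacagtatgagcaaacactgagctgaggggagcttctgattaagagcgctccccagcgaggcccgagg
Cldn18 start 2, minus strand, chr9:99717218-99717517: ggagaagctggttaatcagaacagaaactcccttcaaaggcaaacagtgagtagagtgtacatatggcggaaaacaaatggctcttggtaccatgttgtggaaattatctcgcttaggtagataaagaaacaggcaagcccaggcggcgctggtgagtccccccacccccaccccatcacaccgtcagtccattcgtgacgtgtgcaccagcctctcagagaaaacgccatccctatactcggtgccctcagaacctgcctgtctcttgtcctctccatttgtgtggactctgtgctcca
Ocln start 1, minus strand, chr13:100552449-100552748: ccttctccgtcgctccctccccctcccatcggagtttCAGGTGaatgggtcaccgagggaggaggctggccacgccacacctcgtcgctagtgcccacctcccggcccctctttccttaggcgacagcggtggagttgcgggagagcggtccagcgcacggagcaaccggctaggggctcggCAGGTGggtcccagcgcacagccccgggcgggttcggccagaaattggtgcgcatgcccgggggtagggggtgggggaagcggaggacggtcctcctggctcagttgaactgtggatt

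The E-box was found in the promoters of 5 of the 7 members with a RefSeq promoter, namely Scnn1b, Scnn1g, Cldn3, Ocln and Epcam, and in neither start of Cldn18 nor in Atp1b1. Over all 32544 mouse promoters of the same length 20.28% held it on either strand. That share is of single promoters, while the 7 members had 9 promoters, so the units differ. The windows of the Ocln starts also overlap. In Scnn1g a pair of E-boxes on opposite strands lay 113 and 105 bases before the start, and in Ocln the motif lay 213 and 68 bases before it. In Scnn1b it lay within the transcribed part, at base 21. The motif AACCNGGTT, which grainyhead-like epithelial factors are known to bind, was found in the promoters of 0 of the 7 members and in 0.2612% of all promoters. The promoter of Atp1b1 had 31 CpG sites and that of Scnn1g 18, against 10 and 9 at the starts of Cldn18 and a median of 7 over all promoters. The promoters of Scnn1a and Cdh1 were not analysed here. These matches describe letters in a window and carry no information on binding in these samples.

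Levels are given as CPM, the counts of a gene scaled to a common library size by the TMM method, and every value after ± is the SD over 3 libraries. At each time after irradiation the log2 change from unirradiated lung was below 0 for 9 of 9 members. The median change of the members was -0.30 at 8 d, -0.44 at 11 d and -0.58 at 14 d on the log2 scale, while the median over all genes tested was 0.01, -0.01 and 0.01. By edgeR's quasi-likelihood test with Benjamini-Hochberg adjustment over all genes, with a call at an adjusted p below 0.05, 3 members fell at 8 d (Atp1b1, Ocln and Cldn18), where 10.6% of all genes were called lower. At 11 d 4 members fell (Cldn18, Ocln, Scnn1b and Atp1b1) against 17.8% of all genes, and at 14 d 4 fell (Cldn18, Ocln, Scnn1b and Scnn1g) against 18.9%. No member rose at any of these times by edgeR, DESeq2 or limma-voom, while 13%, 19.4% and 20% of all genes were called higher by edgeR. The 3 comparisons share the same unirradiated libraries, so they are not independent of each other.

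The count of calls at 8 d and 11 d hung on single libraries, and that at 14 d did not. At 8 d the 3 calls became 0 without NoIR replicate 1 or without IR_8d replicate 1, and 1 without NoIR replicate 2 or replicate 3. At 11 d the 4 calls became 1 without IR_11d replicate 1, and 2 without NoIR replicate 2, NoIR replicate 3 or IR_11d replicate 2. At 14 d between 4 and 6 members fell whichever library was left out, and Cldn18, Ocln, Scnn1b and Scnn1g were among them under each of the 15 alternatives run. The libraries of 5 members lay wholly below all unirradiated libraries at 8 d, those of 7 at 11 d and those of 7 at 14 d, where 18.5%, 26.7% and 25% of all genes did so.

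**Figure D1:**
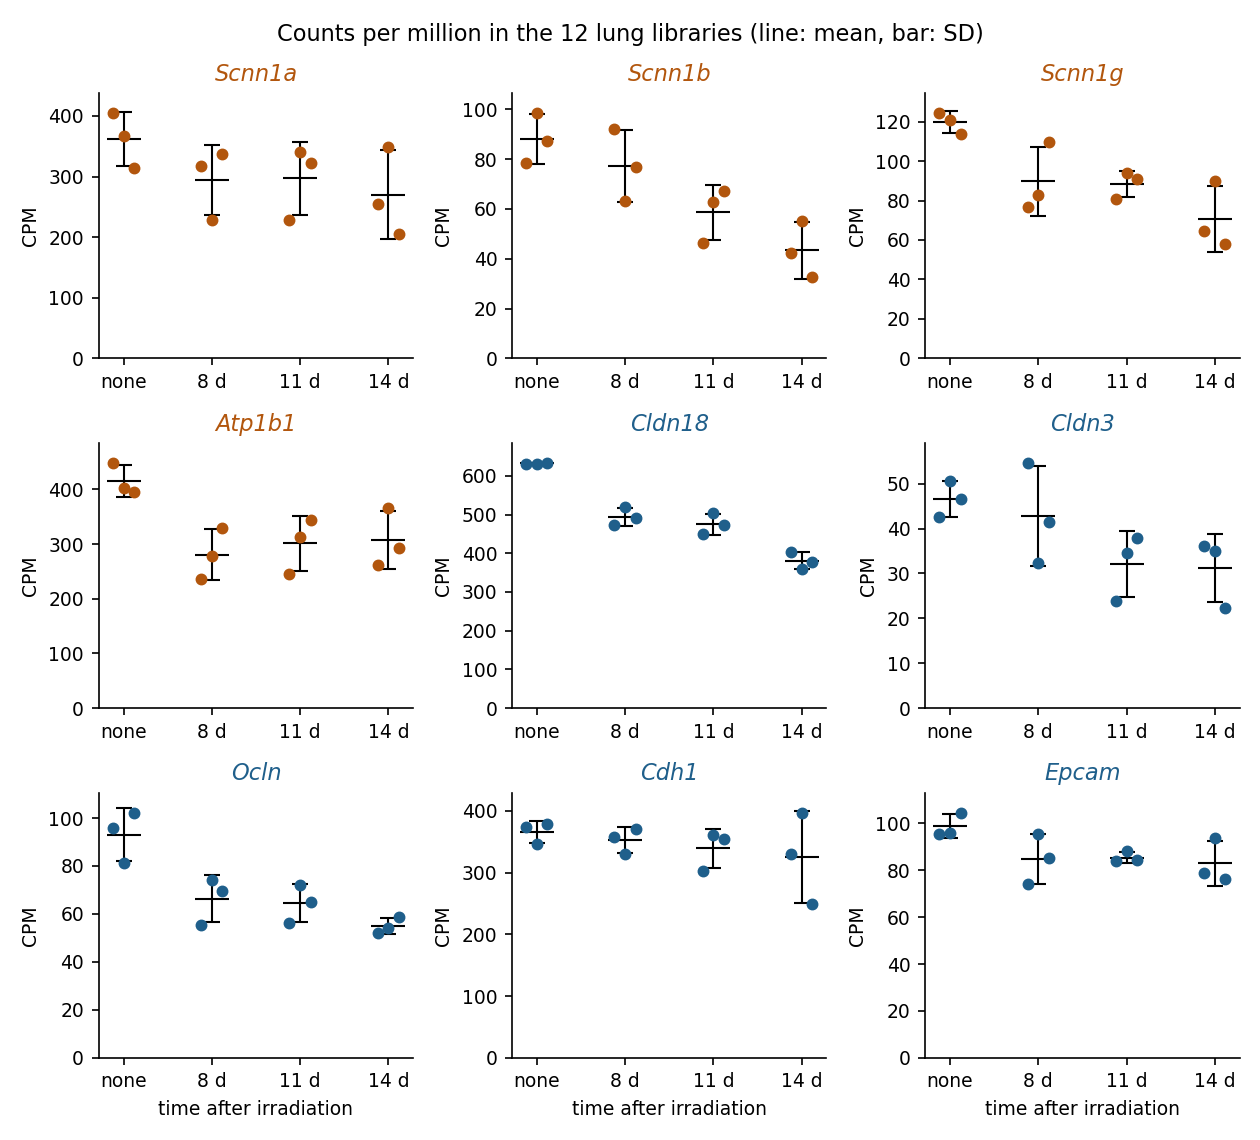
Level of each member in CPM (y axis, from 0, one panel a gene) in the 12 libraries by group (x axis), with points for libraries and a bar for the group mean with its SD. Cldn18 steps down from 632 CPM in unirradiated lung to 381 CPM at 14 d with little spread, while the Cdh1 groups overlap.

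Scnn1b, the β subunit of ENaC, had the largest log2 change of the members at 14 d. It was at 78.4, 98.4 and 87.3 CPM in the unirradiated libraries, at 92.0, 63.1 and 76.7 CPM at 8 d, at 46.2, 62.6 and 67.3 CPM at 11 d, and at 42.5, 55.2 and 32.5 CPM at 14 d. The 8 d libraries overlapped the controls, and those of 11 d and 14 d lay below each of them. At 14 d Scnn1b stood at 49.3% of its unirradiated mean, a log2 change of -1.02 (SE 0.20, 95% interval -1.45 to -0.59, edgeR adjusted p = 0.000978). At 11 d it was at 66.6% of it (log2 -0.59, SE 0.20, adjusted p = 0.0325), a call that was lost without any 1 of NoIR replicate 2, NoIR replicate 3, IR_11d replicate 1 or IR_11d replicate 2, with adjusted p up to 0.143. At 8 d the change was -0.19 (SE 0.20, adjusted p = 0.539).

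Scnn1g, the γ subunit encoded next to Scnn1b, was at 124, 121 and 114 CPM without irradiation, at 76.7, 82.7 and 109.7 CPM at 8 d, at 80.7, 93.7 and 90.7 CPM at 11 d, and at 64.8, 89.7 and 57.8 CPM at 14 d. Each irradiated library was below each control. The change at 14 d was -0.76 on the log2 scale (SE 0.17, 95% interval -1.12 to -0.40, edgeR adjusted p = 0.00237), which left 59.1% of the unirradiated mean. At 8 d and 11 d the changes of -0.42 and -0.44 missed the threshold (adjusted p = 0.0895 and 0.0537). The 11 d change was called by DESeq2 (adjusted p = 0.0402) and by a fit of the compared groups alone (0.00725). Without IR_8d replicate 3, the highest of its group, Scnn1g was called at 8 d (log2 -0.59, adjusted p = 0.0312). In 14 of 15 alternatives at 8 d and 13 of 15 at 11 d Scnn1g was not called, with adjusted p up to 0.234 and 0.168.

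Scnn1a encodes the α subunit, which the channel needs in order to conduct. It was at 405, 366 and 315 CPM in unirradiated lung, at 318, 228 and 336 CPM at 8 d, at 228, 340.5 and 323 CPM at 11 d, and at 255, 349 and 206 CPM at 14 d. The groups overlapped at each time. The log2 change at 14 d was -0.42 (SE 0.21, 95% interval -0.87 to 0.03, edgeR adjusted p = 0.133), and those at 8 d and 11 d were -0.30 and -0.28 (adjusted p = 0.341 and 0.311). Without IR_14d replicate 2, its highest library at that time, the change was -0.65 with an adjusted p of 0.028. In the other 14 of 15 alternatives Scnn1a was not called at 14 d, with changes as small as -0.26 and adjusted p up to 0.390.

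The subunits of ENaC were also set against each other within each library, as ratios of CPM per kilobase of exon, which is RPKM. Scnn1b stood at 0.304, 0.422 and 0.436 of Scnn1a in the unirradiated libraries and at 0.261, 0.248 and 0.248 of it at 14 d. The 14 d ratios all lay below the controls and within a narrower range. The mean ratio of 0.387 ± 0.072 in the controls became 0.252 ± 0.0078 at 14 d, by way of 0.415 ± 0.051 at 8 d and 0.311 ± 0.020 at 11 d. Scnn1g to Scnn1a went from 0.460 ± 0.037 to 0.364 ± 0.020 at 14 d, again without overlap, and passed through 0.428 ± 0.086 at 8 d and 0.419 ± 0.061 at 11 d, where the libraries overlapped the controls. These ratios were not tested.

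Atp1b1, which the pump needs for its assembly and passage to the membrane, had its lowest mean at 8 d, but the irradiated groups overlapped. Against 8 d the log2 change was 0.10 at 11 d and 0.13 at 14 d (edgeR adjusted p = 0.823 and 0.672). Atp1b1 thus did not differ between the irradiated times by the test. It was at 448, 403 and 395 CPM without irradiation, at 236, 278 and 329 CPM at 8 d, at 245, 313 and 345 CPM at 11 d, and at 262, 366 and 293 CPM at 14 d. Each irradiated library was below each control. The log2 change was -0.57 at 8 d (SE 0.17, edgeR adjusted p = 0.0249), -0.46 at 11 d (SE 0.17, adjusted p = 0.042) and -0.44 at 14 d (SE 0.17, 95% interval -0.79 to -0.08, adjusted p = 0.0529). The 8 d call was lost without NoIR replicate 1 or 2 or IR_8d replicate 1 or 2, with adjusted p up to 0.093, and the 11 d call without any 1 of the 3 controls or IR_11d replicate 1 or 2, with adjusted p up to 0.176. Scaling by library size alone also lost the 8 d call in edgeR (adjusted p = 0.0553). At 14 d it was called without IR_14d replicate 2 (log2 -0.58, adjusted p = 0.0204) and with a replicate block (0.0408). DESeq2 (adjusted p = 0.0361), limma-voom (0.0474) and a fit of the compared groups alone (0.0402) also called it. In 10 of 15 alternatives Atp1b1 was not called at 14 d, with adjusted p up to 0.203. Exons of Atp1b1 share 575 bases with exons of Nme7 on the other strand. The sources used here do not say whether the counting used strand. Nme7 had 11705 counts over the 12 libraries against 94511 for Atp1b1.

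Cldn18 was the steadiest member in unirradiated lung, at 632, 631 and 634 CPM. It was at 473, 518 and 492 CPM at 8 d, at 449, 503 and 474 CPM at 11 d, and at 404, 360.2 and 378 CPM at 14 d. Each irradiated library was below each control, and the 14 d libraries were also below all those of 8 d and 11 d. Cldn18 fell by 0.35 on the log2 scale at 8 d (SE 0.11, edgeR adjusted p = 0.0335), by 0.41 at 11 d (SE 0.11, adjusted p = 0.0105) and by 0.73 at 14 d (SE 0.11, 95% interval -0.97 to -0.49, adjusted p = 0.000126). At 14 d 60.2% of the unirradiated mean was left. The 8 d call was lost without any 1 of the 3 controls, without IR_8d replicate 1 or 3 and in 4 other alternatives, with adjusted p up to 0.11 and log2 changes between -0.39 and -0.30.

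Ocln spans the membrane in the tight junction strands. It was at 96.0, 81.0 and 102 CPM without irradiation, at 55.3, 74.2 and 69.5 CPM at 8 d, at 56.3, 72.3 and 64.9 CPM at 11 d, and at 52.1, 54.1 and 58.6 CPM at 14 d. Its irradiated libraries all lay below the controls. Ocln fell at each time, by 0.49 at 8 d (SE 0.14, edgeR adjusted p = 0.0219), by 0.53 at 11 d (SE 0.14, adjusted p = 0.00933) and by 0.76 at 14 d (SE 0.14, 95% interval -1.07 to -0.46, adjusted p = 0.000645) on the log2 scale. The 8 d call was lost without NoIR replicate 1 or 3 or IR_8d replicate 1, with adjusted p up to 0.079, and the 11 d call without IR_11d replicate 1, with an adjusted p of 0.051. An edgeR fit of the compared groups alone also lost the 8 d call (adjusted p = 0.0626). Per kilobase, Ocln stood at 0.155 ± 0.018 of Cldn18 without irradiation and at 0.141 ± 0.015, 0.143 ± 0.0098 and 0.153 ± 0.015 of it at 8, 11 and 14 d.

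Cldn3 had fewer counts than the other members. It was at 42.5, 50.7 and 46.5 CPM in unirradiated lung, at 54.6, 32.4 and 41.3 CPM at 8 d, at 23.8, 34.6 and 38.0 CPM at 11 d, and at 36.1, 35.1 and 22.4 CPM at 14 d. The 8 d libraries lay on both sides of the controls, and the 11 d and 14 d libraries lay below them. By edgeR neither later change passed the threshold, with -0.54 at 11 d (SE 0.22, edgeR adjusted p = 0.0722) and -0.58 at 14 d (SE 0.22, 95% interval -1.06 to -0.10, adjusted p = 0.0527) on the log2 scale. At 14 d DESeq2 (adjusted p = 0.0357), limma-voom (0.0427), a fit without the filter (0.0395) and a fit of the compared groups alone (0.0236) called Cldn3. At 11 d a fit of the compared groups alone did (log2 -0.53, adjusted p = 0.0277). In 11 of 15 alternatives at 14 d and 14 of 15 at 11 d Cldn3 was not called, with adjusted p up to 0.196 and 0.270. Its exons share 40 bases with Wbscr25 on the other strand, which had 343 counts over the 12 libraries.

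E-cadherin and Epcam did not pass the test at any time. Cdh1 was at 374, 346 and 379 CPM without irradiation, at 358, 329.6 and 371 CPM at 8 d, at 303, 360.4 and 354 CPM at 11 d, and at 329, 397 and 249.5 CPM at 14 d. Its groups overlapped at each time, and the highest and the lowest of its 12 values were both 14 d libraries. The log2 change of Cdh1 was -0.05 at 8 d (95% interval -0.38 to 0.28, edgeR adjusted p = 0.84), -0.11 at 11 d (adjusted p = 0.605) and -0.17 at 14 d (95% interval -0.50 to 0.16, adjusted p = 0.418). These intervals leave room for a fall of up to 0.50 at 14 d on the log2 scale.

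Epcam was at 95.6, 96.1 and 105 CPM in unirradiated lung, at 74.0, 95.4 and 85.2 CPM at 8 d, at 83.8, 88.1 and 84.2 CPM at 11 d, and at 78.9, 93.8 and 76.2 CPM at 14 d. Each irradiated library was below each control, by as little as 95.4 against 95.6 CPM. The changes were -0.22, -0.21 and -0.25 on the log2 scale (SE 0.12 each), with an interval of -0.51 to 0.01 at 14 d and edgeR adjusted p of 0.223, 0.193 and 0.123. Per kilobase, Cldn18 stood at 3.16 ± 0.15 times Epcam without irradiation and at 2.29 ± 0.34 times Epcam at 14 d, and the ranges did not overlap.

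**Figure D2:**
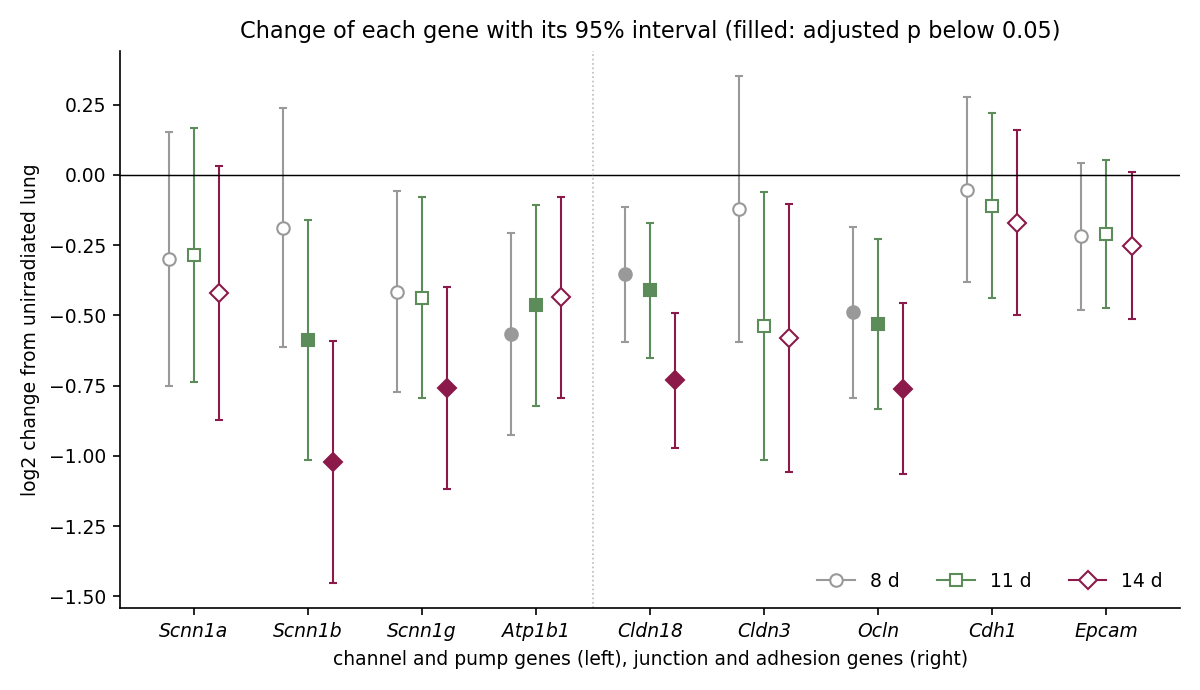
Log2 change from unirradiated lung (y axis) of each member (x axis) at 8, 11 and 14 d by edgeR, with bars for the 95% interval. The points of Scnn1b move from -0.19 to -1.02 over the 3 times, those of Cdh1 stay between -0.05 and -0.17, and filled points passed the adjusted p threshold.

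Over all 4 groups at once, 5 members differed by edgeR's joint test, where 39.2% of all genes did so. These were Cldn18 (adjusted p = 0.000972), Ocln (0.00321), Scnn1b (0.00417), Scnn1g (0.0144) and Atp1b1 (0.0461). Without NoIR replicate 1, NoIR replicate 2 or IR_14d replicate 1 the count was 3. The joint call of Atp1b1 was lost in 9 of 20 alternatives, with adjusted p up to 0.194. That of Scnn1g was lost in 3 of 20, with adjusted p up to 0.0573. Cldn18, Ocln and Scnn1b kept theirs in all 20. Cldn3, Epcam, Scnn1a and Cdh1 had adjusted p of 0.0968, 0.289, 0.367 and 0.774.

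Between the irradiated times, 2 members were lower at 14 d than at 8 d, Scnn1b and Cldn18, where 7.29% of all genes were called lower. Scnn1b was lower by 0.83 on the log2 scale, written as a change of -0.83 (SE 0.20, 95% interval -1.26 to -0.40, edgeR adjusted p = 0.0118), and Cldn18 changed by -0.38 (SE 0.11, 95% interval -0.62 to -0.14, adjusted p = 0.035). In both genes the libraries of 8 d and 14 d did not overlap, as for 14.9% of all genes on the lower side. Without IR_14d replicate 1 neither was called, with adjusted p of 0.0516 for Scnn1b and 0.0724 for Cldn18. Cldn18 was also lost without IR_8d replicate 2 (adjusted p = 0.0761), IR_8d replicate 3 (0.0903), IR_14d replicate 2 (0.104) or IR_14d replicate 3 (0.0778). Without IR_14d replicate 2 Scnn1g was called too (log2 -0.55, adjusted p = 0.0372). In the other 14 of 15 alternatives it was not, with adjusted p up to 0.600. Between these times the other 7 members did not pass the test, with log2 changes from -0.46 for Cldn3 (adjusted p = 0.197) to 0.13 for Atp1b1 (adjusted p = 0.672).

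From 8 d to 11 d no member was called in either direction by edgeR, DESeq2 or limma-voom. The share of all genes called in that step was 2.14%. From 11 d to 14 d edgeR called 0 members, against 1.8% of all genes. DESeq2 called 1 member, Cldn18 (log2 -0.31, adjusted p = 0.0168), and limma-voom called 0. The edgeR values were -0.32 for Cldn18 (adjusted p = 0.169) and -0.43 for Scnn1b (adjusted p = 0.302), the lowest of the members in that step.

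Junction and transport members were compared as the mean log2 CPM of each set within a library. The 5 junction members averaged a change of -0.26 ± 0.02 at 8 d, of -0.36 ± 0.15 at 11 d and of -0.51 ± 0.15 at 14 d. For the 4 sodium channel and pump members the averages were -0.38 ± 0.19, -0.45 ± 0.24 and -0.68 ± 0.32. The junction mean thus stood higher against the transport mean than in unirradiated lung by 0.12 ± 0.17, 0.09 ± 0.09 and 0.17 ± 0.20, while this difference had an SD of 0.12 among the controls themselves. The mean gap was smaller than the SD of its own group at each time. Against the SD among the controls it was about equal at 8 d, smaller at 11 d and larger at 14 d. It is given with no test, since the sets were drawn up with these data known.

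The spread within each set was wider than the gap between them. In the transport set at 14 d the log2 changes ran from -0.42 for Scnn1a to -1.02 for Scnn1b, and in the junction set from -0.17 for Cdh1 to -0.76 for Ocln. The median change of the set was -0.60 for transport and -0.58 for junctions at 14 d, -0.45 and -0.41 at 11 d, and -0.36 and -0.22 at 8 d. Of the transport members 1, 2 and 2 were called lower at the 3 times, and of the junction members 2, 2 and 2. Over all genes 10.6%, 17.8% and 18.9% were called lower at these times.

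**Figure D3:**
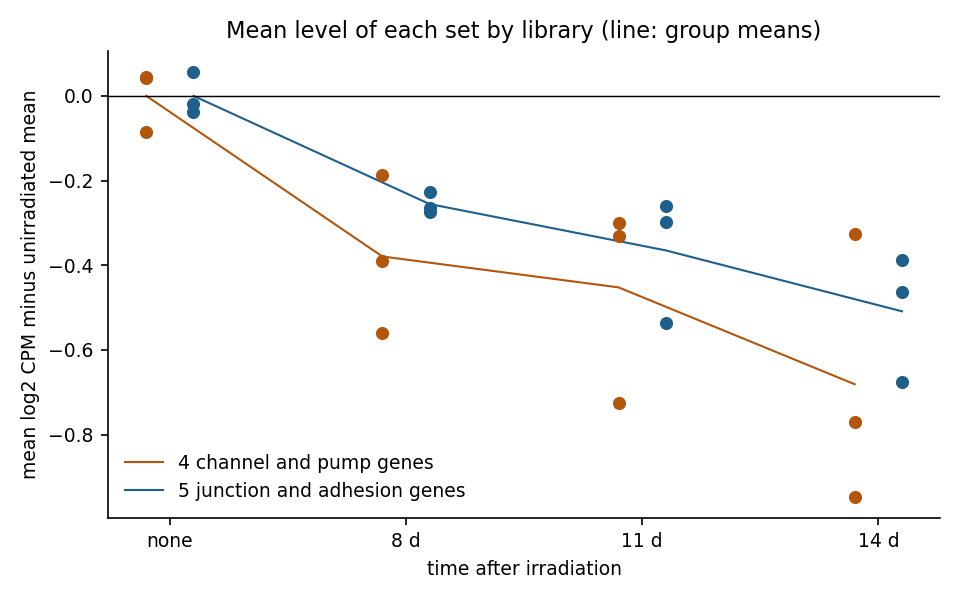
Mean log2 CPM of the 4 sodium channel and pump members (orange) and of the 5 junction and adhesion members (blue) minus its unirradiated mean (y axis) by time (x axis), with points for libraries and lines through the group means. Both lines descend, to -0.68 and -0.51 at 14 d, and at each time after irradiation the libraries of the sets overlap.

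In some libraries the members deviated together. In IR_11d replicate 1 all 9 members were below their group mean, with a mean deviation of -0.22 on the log2 scale, and in IR_11d replicate 2 all 9 were above it. In IR_14d replicate 3 the mean deviation was -0.21 with 1 member above its group mean, and in IR_14d replicate 2 it was 0.22 with 7 above. IR_11d replicate 1 also had the highest summed level of leukocyte markers of its group, 1993 CPM against 1296 and 1292, and the lowest of alveolar type 1 markers, 5426 CPM against 7460 and 6853. Whether these marker levels had a part in the members' values was not tested.

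In bulk tissue, fewer epithelial cells and less RNA per cell cannot be told apart, and this holds for every fall given above. Summed CPM of 11 alveolar type 1 markers, which include the Aqp5 and Clic5 described below, went from between 11726 and 12345 in unirradiated libraries to between 6735 and 7452 at 8 d, 5426 and 7460 at 11 d and 4601 and 5495 at 14 d, and 9 of the 11 were called lower at 14 d. The 12 alveolar type 2 markers summed to 40237 to 44367 CPM without irradiation and 36015 to 42031 CPM at 14 d, with 5 called lower and 2 higher. Lyz2, which macrophages also express, carried that sum, going from 7916 ± 414 to 18716 ± 2631 CPM at 14 d (log2 1.24, edgeR adjusted p = 0.000157). The other 11 type 2 markers went from between 32753 and 36412 CPM to between 18150 and 20363 CPM in sum, without overlap, and Sftpc among them from 21110 ± 2010 to 11382 ± 974 CPM (log2 -0.89, adjusted p = 0.0024). Of 7 leukocyte markers 7 rose at each time, from 399 to 447 CPM in sum to 1826 to 2191 CPM at 14 d. Of 6 endothelial markers 6 fell at 14 d, from 3180 to 3519 CPM to 828 to 1071 CPM. The pan-epithelial keratins, Muc1 and Nkx2-1 summed to 1510 to 1547 CPM without irradiation and 1213 to 1593 CPM at 14 d, groups that overlap. Within that sum Krt18 (log2 0.60, edgeR adjusted p = 0.00717) and Krt8 (0.43, 0.0475) rose at 14 d and Krt19 (-0.56, 0.00531) fell. Markers of the transitional alveolar epithelium, a state known from lung repair, moved against the members. Of 8 such markers 4 rose at 8 d, 7 at 11 d and 7 at 14 d, where Krt19 fell, and their sum went from between 692 and 835 CPM to between 1554 and 2066, 2642 and 2912, and 1808 and 1890 CPM. Lcn2 and Lgals3 on that list, which leukocytes also express, were at 768 ± 98 and 391 ± 17 CPM at 14 d, and Krt8, Krt18, Krt19 and Cldn4 stand on other lists here too. Lcn2 made up much of the rise in that sum. Without it the other 7 summed to between 599 and 710 CPM in unirradiated lung. After irradiation they summed to between 768 and 1016 CPM at 8 d, 1149 and 1326 at 11 d, and 1019 and 1208 at 14 d. No marker on these lists was at 0 in any group. The part of cell composition in the members' changes was not tested.

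Airway cells, which also express several members, were tracked by their markers as well. The 6 club cell markers summed to between 17850 and 31519 CPM without irradiation and between 5852 and 8681 CPM at 14 d, where 4 of 6 were called lower. The 6 ciliated cell markers summed to 516 to 656 CPM and to 208 to 365 CPM, with 1 of 6 called lower. That 1 was Tppp3, and the other 5 summed to between 166 and 257 CPM without irradiation and between 136 and 247 CPM at 14 d. The 5 mesothelial markers summed to 388 to 461 CPM and to 140 to 193 CPM, with 5 of 5 called lower, and of 6 fibroblast markers 2 were called higher and 3 lower.

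Levels of different genes can be compared only per length, and RPKM is used for that. In unirradiated lung the order was Cldn18 (142 RPKM), Atp1b1 (135), Scnn1a (87.6), Cdh1 (80.03), Epcam (45.0), Scnn1g (40.0), Cldn3 (37.0), Scnn1b (33.4) and Ocln (22.1). The libraries of Cldn18 and Atp1b1 overlapped, as did those of Scnn1a and Cdh1, of Scnn1g and Cldn3, and of Cldn3 and Scnn1b, so these neighbours are not ordered beyond their spread. At 14 d the order was Atp1b1 (99.7 RPKM), Cldn18 (85.4), Cdh1 (71.2), Scnn1a (65.4), Epcam (37.8), Cldn3 (24.8), Scnn1g (23.7), Scnn1b (16.5) and Ocln (13.0). By then the neighbours overlapped throughout, except that Scnn1a stood above Epcam and Epcam above Cldn3. Within each group the ENaC subunit with the highest level per length was Scnn1a. With the longest transcript as the length, Atp1b1 stood above Cldn18 in unirradiated lung as well.

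**Figure D4:**
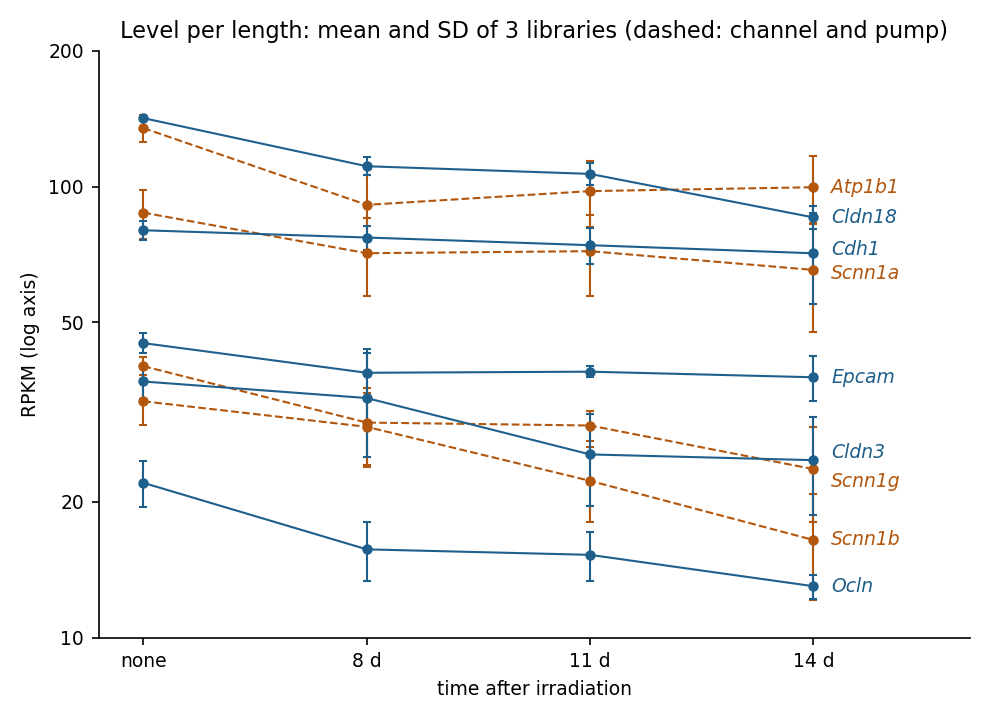
Mean RPKM of each member (y axis, log scale) in the 4 groups (x axis), one line a gene, with bars for the SD over 3 libraries and dashed lines for the transport genes. Cldn18 drops from 142 to 85.4 RPKM and Scnn1b from 33.4 to 16.5 RPKM, while the line of Cdh1 runs from 80.03 to 71.2 RPKM.

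Other tight junction genes were called in both directions at 11 d and 14 d. Of 27 such genes, 0 rose and 9 fell at 8 d, 2 rose and 12 fell at 11 d, and 3 rose and 16 fell at 14 d, with medians of -0.15, -0.51 and -0.53 on the log2 scale. The shares called lower were 33.3%, 44.4% and 59.3%, against 10.6%, 17.8% and 18.9% of all genes, and the shares called higher 0%, 7.41% and 11.1%, against 13%, 19.4% and 20%. These background shares also apply to the lists that follow. Without IR_8d replicate 2, 3 rose at 8 d, and without NoIR replicate 3, 1 did. Without IR_11d replicate 1, 1 rose at 11 d. Tjp1, the scaffold ZO-1 that ties claudins and occludin to actin, went from 577 ± 53 CPM to 240.3 ± 44.0 CPM at 14 d (log2 -1.26, edgeR adjusted p = 0.00014), and the scaffolds Mpdz (-1.01, adjusted p = 7.41e-05), Magi1 (-1.15, 0.000365) and Mpp5 (-0.68, 0.000256) and the polarity protein Pard3 (-0.95, 0.000799) fell too. The junctional adhesion molecule F11r, named after its values were seen, went from 334 ± 26 to 199 ± 15 CPM (-0.75, adjusted p = 0.000346). In which cell types these genes and the claudins below changed cannot be read from bulk lung. The part of the falling endothelial and mesothelial markers in their changes was not tested.

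Among the claudins, Cldn10 fell from 26.4 ± 3.6 to 8.03 ± 0.76 CPM at 14 d (log2 -1.72, edgeR adjusted p = 3.88e-06) and Cldn15 from 8.88 ± 1.59 to 1.19 ± 0.74 CPM (-2.88, adjusted p = 9.23e-05). Cldn4, known to be induced in injured lung, rose from 2.29 ± 0.93 CPM to 5.25 ± 0.28 CPM at 11 d and 12.4 ± 4.6 CPM at 14 d (log2 2.43, adjusted p = 1.6e-05). Cldn1 (log2 0.70, adjusted p = 0.0151) and Cldn2 (2.13, adjusted p = 0.00437) also rose at 14 d, to 12.3 ± 1.6 and 1.36 ± 0.45 CPM. Cldn1, Cldn2 and the airway claudin Cldn7 (log2 -0.41, adjusted p = 0.0309) were chosen after their values were seen, and Cldn1 was lost without NoIR replicate 3 or IR_14d replicate 3 and Cldn7 without NoIR replicate 2 or 3 or IR_14d replicate 1 or 3.

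Several adherens junction genes fell, and counts from bulk lung do not show in which cell types. The part of the falling endothelial markers given above was not tested. Of 20 other adherens junction and desmosome genes, 1 rose and 4 fell at 8 d, 1 rose and 9 fell at 11 d, and 1 rose and 9 fell at 14 d, with medians of -0.25, -0.50 and -0.48. The 4 at 8 d became 1 without NoIR replicate 1 or IR_8d replicate 2 and 2 without NoIR replicate 3. The 1 that rose became 2 without IR_11d replicate 1 at 11 d and without IR_14d replicate 3 at 14 d. α-catenin (Ctnna1), which couples the cadherin complex to actin, went from 903 ± 32 to 501 ± 22 CPM at 14 d (log2 -0.85, edgeR adjusted p = 4.36e-05), and p120-catenin (Ctnnd1), which keeps E-cadherin at the membrane, changed by -0.78 (adjusted p = 0.00207). Plakoglobin (Jup) fell by 1.31 (adjusted p = 0.000104) and vinculin (Vcl) by 0.96 (adjusted p = 0.000112).

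Further members of that list were the nectin Pvrl3 (-0.81, edgeR adjusted p = 4.77e-05 at 14 d), Perp (-0.99, 0.000335) and periplakin (Ppl, -0.83, 0.00259). β-catenin (Ctnnb1) was at 732 ± 67 CPM without irradiation and 653 ± 50 CPM at 14 d (log2 -0.17, adjusted p = 0.364).

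Of 27 other genes of ion and water transport, 2 rose and 9 fell at 8 d, 3 rose and 12 fell at 11 d, and 3 rose and 11 fell at 14 d, with medians of -0.29, -0.33 and -0.26. The shares called lower were 33.3%, 44.4% and 40.7%, and those called higher, 7.41%, 11.1% and 11.1%, were below the shares of all genes. Without NoIR replicate 2 the 9 at 8 d became 5. The chloride channel Cftr fell from 17.3 ± 2.5 to 9.20 ± 0.11 CPM at 8 d and was at 9.55 ± 1.77 CPM at 14 d (log2 -0.85, edgeR adjusted p = 0.000519). Aqp5, the water channel of type 1 cells, went from 132 ± 9.7 to 97.7 ± 5.6 CPM at 14 d (-0.44, adjusted p = 0.00632). Aqp1, a water channel of lung capillaries, fell from 398 ± 39 to 64.1 ± 4.4 CPM (-2.63, adjusted p = 2.62e-07), and Clic5, which is high in type 1 cells, from 1071 ± 88 to 352 ± 26 CPM (-1.61, adjusted p = 8.14e-07).

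Small regulators of the pump moved in both directions. Fxyd1 (log2 -1.94, edgeR adjusted p = 3.71e-05) and Fxyd3 (log2 -2.02, adjusted p = 1.94e-05) fell at 14 d. Fxyd5, also called dysadherin, rose from 163 ± 21 to 436 ± 38 CPM (log2 1.42, adjusted p = 8.46e-06). The calcium-activated potassium channel Kcnn4, which lymphocytes and macrophages also use, rose from 2.49 ± 0.31 to 20.4 ± 4.0 CPM (log2 3.03, adjusted p = 1.45e-07). The leukocyte marker sums above moved with these rises, and their part was not tested.

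Regulators of ENaC were called in both directions. Of 20, 1 rose and 7 fell at 8 d, 5 rose and 8 fell at 11 d, and 5 rose and 9 fell at 14 d, with medians of -0.21, -0.18 and -0.20. The shares called lower were 35%, 40% and 45%, against 10.6%, 17.8% and 18.9% of all genes. Those called higher were 5%, 25% and 25%, against 13%, 19.4% and 20% of all genes. The 7 at 8 d became 3 or 4 when any 1 library of the compared groups other than IR_8d replicate 1 was left out, and 2 rose there without IR_8d replicate 1. At 11 d the 5 that rose became 3 without NoIR replicate 2 or IR_11d replicate 1. Channel-activating protease 1 (Prss8), which cleaves and opens ENaC, fell from 37.8 ± 6.0 to 18.5 ± 2.6 CPM at 14 d (log2 -1.03, edgeR adjusted p = 0.000125), while the protease St14 rose (0.86, adjusted p = 0.00119). The mineralocorticoid receptor Nr3c2, through which aldosterone acts on the channel genes, fell by 1.20 (adjusted p = 0.000471) and the glucocorticoid receptor Nr3c1 by 0.53 (adjusted p = 0.00121).

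Sgk1, the kinase that keeps ENaC at the surface by holding back the ubiquitin ligase Nedd4l, was at 104 ± 14 CPM without irradiation, 104 ± 22 CPM at 8 d, 175 ± 32 CPM at 11 d and 231 ± 14 CPM at 14 d. Its changes were 0.01 (edgeR adjusted p = 0.98), 0.76 (0.00315) and 1.15 (9.32e-05), and the related Sgk3 rose by 1.05 at 14 d (0.000523). Nedd4l fell by 0.56 at 8 d (adjusted p = 0.0178), by 0.57 at 11 d (0.0113) and by 0.44 at 14 d (0.0366). Its 8 d call was lost without NoIR replicate 1 or 2 or IR_8d replicate 2 or 3, with adjusted p up to 0.0687, and its 14 d call with library size alone and without NoIR replicate 1 or 2 or IR_14d replicate 1 or 3, with adjusted p up to 0.151. Tsc22d3, a gene induced by glucocorticoids, fell by 1.81, 1.07 and 1.28 (adjusted p = 0.000647, 0.0111 and 0.00335), and its 3 control libraries were far apart, at 301 ± 125 CPM. The 11 d call of Tsc22d3 was lost without NoIR replicate 1 (adjusted p = 0.0507) or NoIR replicate 2 (0.0547).

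**Figure D5:**
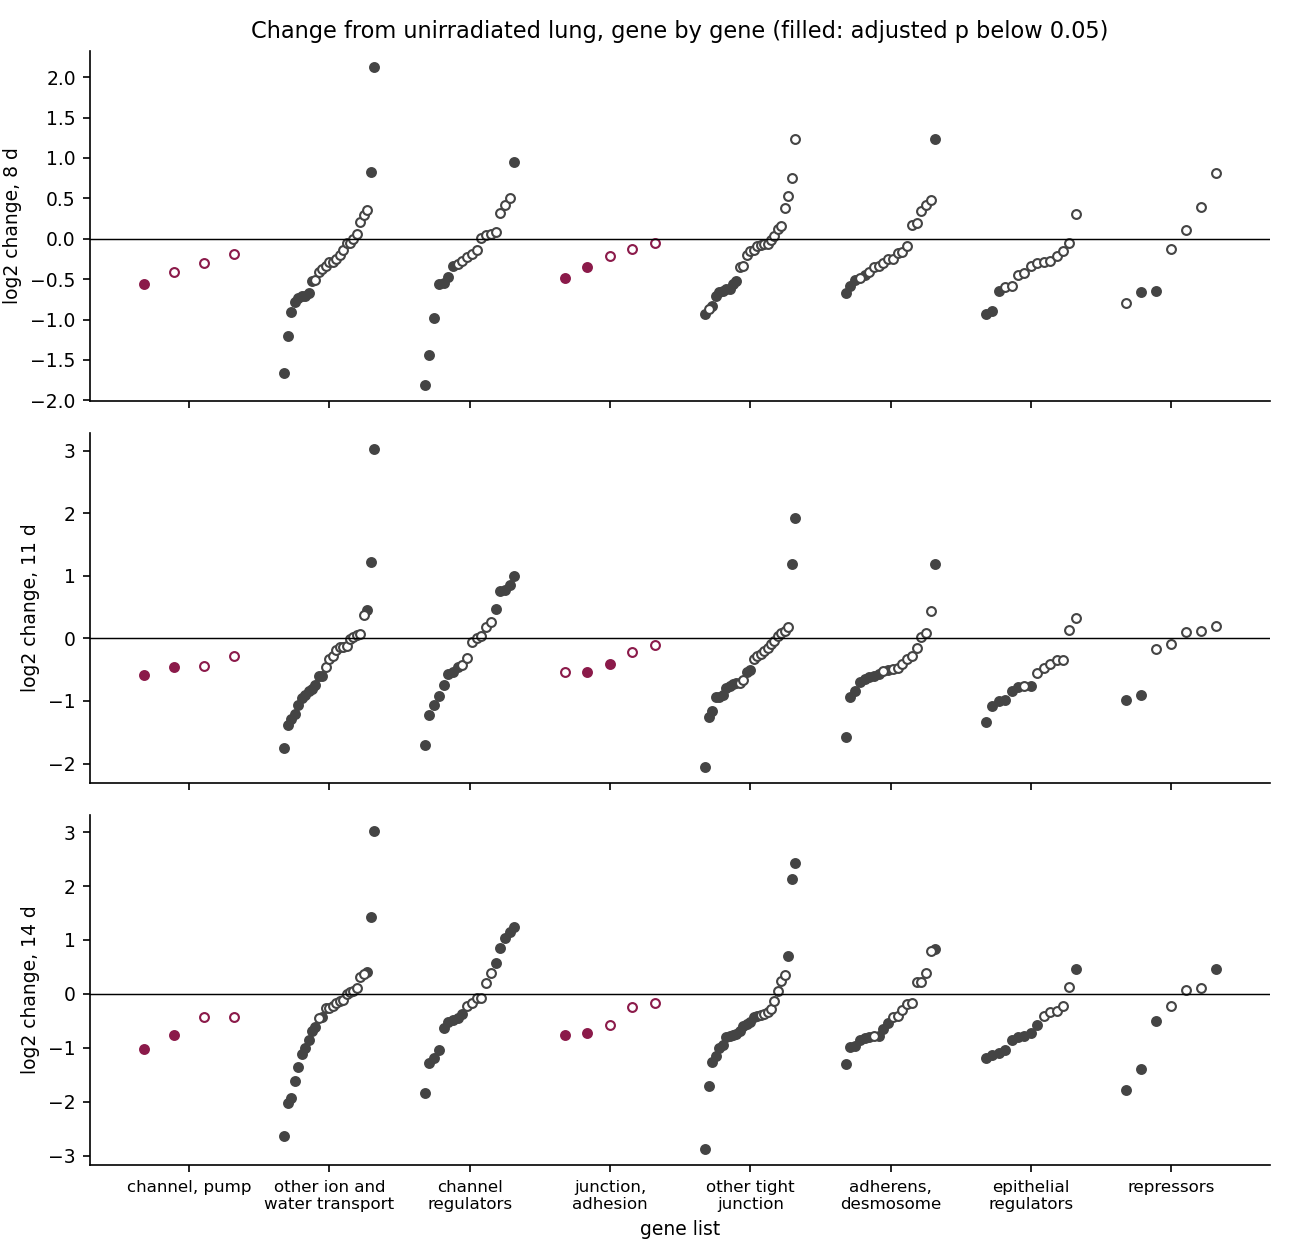
Log2 change from unirradiated lung (y axis, one panel each for 8, 11 and 14 d) of the genes in the 2 sets of members (red) and the 6 further lists (x axis), one point a gene in order of its change, with filled points for genes that passed the adjusted p threshold. At 14 d the other tight junction genes run from -2.88 to 2.43 and the members from -1.02 to -0.17.

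Of 15 transcription and splicing regulators of epithelial genes, 0 rose and 3 fell at 8 d, 0 rose and 7 fell at 11 d, and 1 rose and 9 fell at 14 d, with medians of -0.34, -0.76 and -0.73. The shares called lower were 20%, 46.7% and 60%. The 3 at 8 d became 1 without IR_8d replicate 1, and DESeq2 called 5. The fall at 14 d was 1.09 for Elf5 (edgeR adjusted p = 5.72e-05), 1.18 for Klf5 (0.0005), 1.05 for Gata6 (0.000358) and 0.73 for Foxa2 (0.00406) on the log2 scale. Cebpa rose by 0.46 (adjusted p = 0.0261), a call lost without NoIR replicate 2 or 3 or IR_14d replicate 1 or 2. Nkx2-1, the master regulator of lung epithelium, was at -0.33 (adjusted p = 0.0868), and Grhl2, which maintains Cdh1 and claudin expression, at -0.42 (adjusted p = 0.0753), which was called without IR_14d replicate 2 (-0.59, adjusted p = 0.0231).

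Repressors known to act on the E-box were counted in bulk lung, which does not show their levels in epithelial cells. Their part in the members' changes was not tested. Of 7 tested genes out of 8 (Snai3 did not pass the filter), 0 rose and 2 fell at 8 d, 0 rose and 2 fell at 11 d, and 1 rose and 3 fell at 14 d. The shares called higher were 0%, 0% and 14.3%, and those called lower 28.6%, 28.6% and 42.9%. The 3 that fell at 14 d became 1 in a fit of only the compared groups and without any 1 library of the 2 groups except NoIR replicate 2 and IR_14d replicate 3, and the 1 that rose became 0 without any 1 except NoIR replicate 3. Without NoIR replicate 3 the 2 at 8 d became 1. Zeb1, which represses Cdh1, fell from 184 ± 21 to 70.4 ± 7.0 CPM at 14 d (log2 -1.39, edgeR adjusted p = 4.54e-06), Zeb2 rose by 0.47 (adjusted p = 0.0291), and Snai2 fell at 11 d by 0.99 (adjusted p = 0.000487). Snai1, the best known repressor of E-cadherin, was at 2.83 ± 0.23 CPM without irradiation and 2.97 ± 0.33 CPM at 14 d (log2 0.07, adjusted p = 0.803).

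The genes whose pattern over the 12 libraries was most like a member's were found by the root mean square difference of log2 CPM after centring, among the 12019 genes that averaged 5 CPM or more. For Cldn18 these were Klc1 (0.083), Tprgl (0.085) and Ppp2r5a (0.086), against a deviation of 0.266 for Cldn18 itself around its mean. For Scnn1b they were Smtn (0.126), Rtkn and Ehd2, and for Scnn1g Ptn (0.121), Eps8l1 and 5031425E22Rik. For Ocln they were Snx25 (0.098), Adk and Dusp3, and for Cldn3 Prob1 (0.099), Atp9a and Chchd10. For Atp1b1 they were Rgl2 (0.120), Dnaja4 and Wdr47, for Scnn1a Tead3 (0.126), Dvl2 and Fam160b2, for Epcam Gcc1 (0.074), Zfp422 and Tmco3, and for Cdh1 Pick1 (0.095), Ercc4 and Rbm15b. Of these 27 genes 0 are on the junction, transport, regulator or marker lists. Likeness over libraries of the same samples says nothing of shared function or control.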

How the data were processed

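The deposited values were counts of reads per gene symbol, 1 table per sample. The aligner was TopHat and the build mm10, per the submitters' processing notes. The sources used here do not give the version of TopHat, the counter, its annotation or its strand setting. RNA came from a Trizol extraction and libraries from a NEBNext Ultra II Directional kit, per the labels' protocols. Of 23282 rows, 79 rows of 35 repeated symbols were summed, and 22197 of 23238 symbols matched GENCODE M21, the source of positions and exon lengths.

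edgeR 4.0.16 (R 4.3.3) was fitted to all 12 libraries together and tested by quasi-likelihood, with its default expression filter, which removed 6754 symbols, and TMM scaling. The p-values were adjusted by Benjamini-Hochberg over the 16484 genes tested, and an adjusted value below 0.05 was a call. The SE was obtained from the log2 change and its F statistic. CPM and RPKM were computed from the counts, RPKM per kilobase of merged exons, and log2 CPM of sets and of likeness used a prior count of 2. The alternatives tried were each library left out, DESeq2 1.42.0, limma-voom (limma 3.58.1), scaling by median of ratios or by library size alone, a filter of 10 counts or none, a replicate block, a fit of the compared groups alone and, added after seeing the data, the counts without haemoglobin genes and Rn45s. The fit was tested on simulated data.

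The members, lists and tests were chosen with earlier results of these data known. From each list up to 4 genes with the lowest joint p were named, and up to 8 where a list is described in depth. F11r, Nedd4l, Aqp5, Ctnnb1, Cldn1, Cldn2, Cldn7, Nkx2-1 and Grhl2 were named outside this rule, with their values known. Some genes the rule selects are not reported here.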

Additional observations from a re-analysis of the deposited data

Results flagged for a closer look

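Scnn1b and Cldn18 differed between irradiated times, so their change from unirradiated lung was not the same at 14 d as at 8 d. The direct comparison of 14 d with 8 d gave a log2 change of -0.83 for Scnn1b (edgeR's quasi-likelihood test, adjusted p = 0.0118) and of -0.38 for Cldn18 (adjusted p = 0.035). For both genes the 3 libraries of 14 d were lower than the 3 of 8 d. The call of Scnn1b was lost in 1 of 15 alternatives and that of Cldn18 in 8 of 15, with adjusted p up to 0.0516 and 0.119. The other 7 members were not called in this comparison, and their own differences between the times had edgeR adjusted p of 0.197 or more.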

How the results depend on the processing

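No change of a called gene turned its direction under the alternatives run. Scnn1b, Scnn1g, Cldn18 and Ocln were called lower at 14 d under each of 15 alternatives. At 8 d the members called lower were 1 with library size alone and 1 with only the compared groups in the fit, and 0 to 3 when 1 library was left out, when all genes called ranged from 2593 to 3544. At 11 d they were 1 to 4 with 1 library left out, among 4426 to 5453 genes called, and at 14 d 4 to 6 among 5184 to 6060. For 14 d against 8 d they were 1 without the filter, 1 with only the compared groups and 0 to 2 with 1 library left out, among 1392 to 2548 genes. For 14 d against 11 d DESeq2 called 1 member and 811 genes, and 13 to 681 genes were called with 1 library left out. For 11 d against 8 d DESeq2 called 857 genes, the fit of only the compared groups 143, and 2 to 545 genes were called with 1 library left out. The joint test called 3 to 5 members and 5039 to 7312 genes. The junction minus transport difference lay between 0.104 and 0.290 at 14 d with 1 library left out, between 0.037 and 0.159 at 11 d and between 0.038 and 0.206 at 8 d. Fits with a library left out rest on fewer samples, and the cause of the other shifts was not tested. With the longest transcript as length, unirradiated levels were 103 RPKM for Scnn1a, 161 for Atp1b1, 151 for Cldn18 and 48.4 for Epcam.

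The labels do not say whether the replicate numbers pair the samples, and mixed correlations cannot settle it. Of 18 same-number pairs of libraries 8 had a correlation of deviations over 0.1, within a range of -0.554 to 0.491. With the replicate block, 1 member (Scnn1b) was called lower at 14 d against 8 d, and Atp1b1 was called lower at 14 d against unirradiated lung (adjusted p = 0.0408). Among single genes 3336 of 3503 values and among list counts 1358 of 1440 kept their side of the threshold or stayed within 1.5 times.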
